A study of Rattus norvegicus with 8 samples.

Results

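Immediate early genes are the genes that a cell transcribes first after a stimulus, without the need for new protein synthesis. In neurons, calcium entry and growth factor signalling activate kinases that phosphorylate factors already bound at these genes, and the resulting mRNAs rise and decay within minutes to hours, so that Fos in particular is widely used to map recently active hypothalamic cells. The group considered here was Fos and Fosb, whose proteins pair with Jun proteins to form the transcription factor AP-1, Junb, a Jun protein, Egr1, a zinc finger transcription factor, Nr4a1, an orphan nuclear receptor, Npas4, a neuronal activity-dependent transcription factor, Arc, a postsynaptic protein, Ier2, a small nuclear protein, Btg2, an antiproliferative protein that recruits the deadenylases that shorten poly(A) tails, and Dusp1, a phosphatase that switches off MAP kinases. Members were taken by gene symbol. Of the 10 genes, 5 had at least 1 row under their symbol, namely Fos, Junb, Egr1, Ier2 and Btg2, with 9 polyadenylation sites between them, out of 18003 gene symbols and 98356 sites in all. Fosb, Arc, Nr4a1, Npas4 and Dusp1 had no row under their symbol and were not analysed here.

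The data were whole transcriptome termini site sequencing (WTTS-Seq) libraries, in which each read marks the 3′ end of a polyadenylated RNA. The 8 libraries came from adult male Long-Evans rats that shared handling and habituation to the vapor chamber and differed in what the vaporizer held. Each library is taken here as 1 rat, since the study describes libraries made for individual samples. It gives 8 rats per group for this cohort but 8 libraries in all, and does not account for the difference. The 4 cannabis-exposed rats (replicates 1, 2, 3 and 5) inhaled vaporized whole cannabis plant matter in a single short session, and the 4 air-treated controls (replicates 1 to 4) sat in an identical chamber with an empty vaporizer. Microdissected hypothalamus was collected an hour after exposure, with food withheld in between, and there was no untouched home-cage group. In whole tissue, fewer expressing cells and less RNA per cell cannot be told apart.

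A normalized count is the number of reads on a site divided by the size factor of its library, and gene totals are sums over the sites of a symbol. Libraries held from 1159811 to 3706778 reads on sites, and 1 read was worth from 0.664 to 1.99 normalized counts. The lowest number of reads on any listed site, summed over the libraries, was 16, so a gene whose sites each had fewer reads would not be listed. A further limit is that 34043 of the sites carried no symbol, with 12.1% to 16.1% of the reads of a library, and could hold reads of the genes without a row or of the others. Air control replicate 4 and cannabis replicate 1 were the shallowest library of each group, had no read on 26.1% and 17.0% of the sites, and stood apart together: the correlation of their deviations from the group means across gene totals was 0.489, the highest of the 16 pairs of 1 control and 1 exposed library. Results are therefore also given without this pair, which left 3 rats per group. Of the tissue markers, 11 of 12 hypothalamic genes had a row, and their summed level was from 3316 to 5671 normalized counts in controls and from 7502 to 9553 in exposed rats. In this sum Avp alone had means of 1952 and 4934, and Oxt of 596 and 1193. The log2 fold change was above 0 for 9 of the 11 and below 0 for 2. In limma 3 of the 11, Avp, Oxt and Nkx2-1, had an unadjusted P under 0.05, against 2.41% of all symbols. The 6 midbrain and mammillary markers summed to between 399 and 547 in controls and between 132 and 243 in exposed rats. Slc6a3 alone had means of 270 and 31.8, and the log2 fold change was above 0 for 3 of the 6 and below 0 for 3. The 7 endothelium and blood markers with a row summed to between 117 and 124 and between 134 and 143, of which Flt1 alone had means of 71.0 and 95.7, and the log2 fold change was above 0 for 4 of the 7 and below 0 for 3, with a median of 0.03 and no unadjusted P under 0.05 in limma. The sums of these 3 sets separated the groups (P = 0.0286 each, exact two-sided permutation test, the smallest P that 4 against 4 rats allow), while the neuron, microglia, astrocyte, oligodendrocyte, choroid plexus, pituitary, cortex and hippocampus, striatum and thalamus sets overlapped. The P was not adjusted for the number of sets, which were fixed with earlier results of these data known. Avp and Oxt of the hypothalamic set, and Slc6a3 and En1 of the midbrain set, are among the genes the study called from these libraries. The separation of the hypothalamic and midbrain sums is thus no independent result. The cortical markers Slc17a7, Tbr1 and Neurod6 had no row. The part of these differences in the values of the immediate early genes was not tested.

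None of the immediate early genes measured differed between cannabis-exposed and air-treated rats beyond the spread between animals. In limma on log2(normalized count + 1), 0 of 5 gene totals had an adjusted P under 0.05, against 0.00555% of all gene symbols, and the adjusted P was 0.999 for each of the 5. Before adjustment 0 of 5 had P under 0.05, against 2.41% of all symbols, and edgeR and DESeq2 on the recovered reads also gave 0 of 5 at this level, against 2.52% and 2.18% of all symbols. No member had groups that did not overlap, against 1.98% of all symbols. The log2 fold change was below 0 for 4 of the 5, with a median of -0.10, and it was below 0 for 43.6% of all symbols, whose median was 0.05. Junb, the gene above 0, was below 0 on its leading site alone.

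Levels were low. Each read stands for 1 transcript end whatever the length of the transcript, so gene totals can be set side by side without dividing by length. Btg2 had the highest mean over the 8 libraries, 38.6 normalized counts, which placed it at percentile 60.7 of all gene symbols. Fos followed with 16.2 (percentile 42.2) and Egr1 with 14.2 (percentile 39.7), and the ranges of these 2 genes across libraries overlapped. Junb, with 5.58 (percentile 21.9), and Ier2, with 4.89 (percentile 19.5), were lowest and overlapped in the same way. Btg2 stood above the other 4 genes in every library, although in air control replicate 3 its 44.3 normalized counts lay within the counting interval of the 36.3 of Egr1 (exact Poisson 95% interval 27.2 to 47.3).

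**Figure D1:**
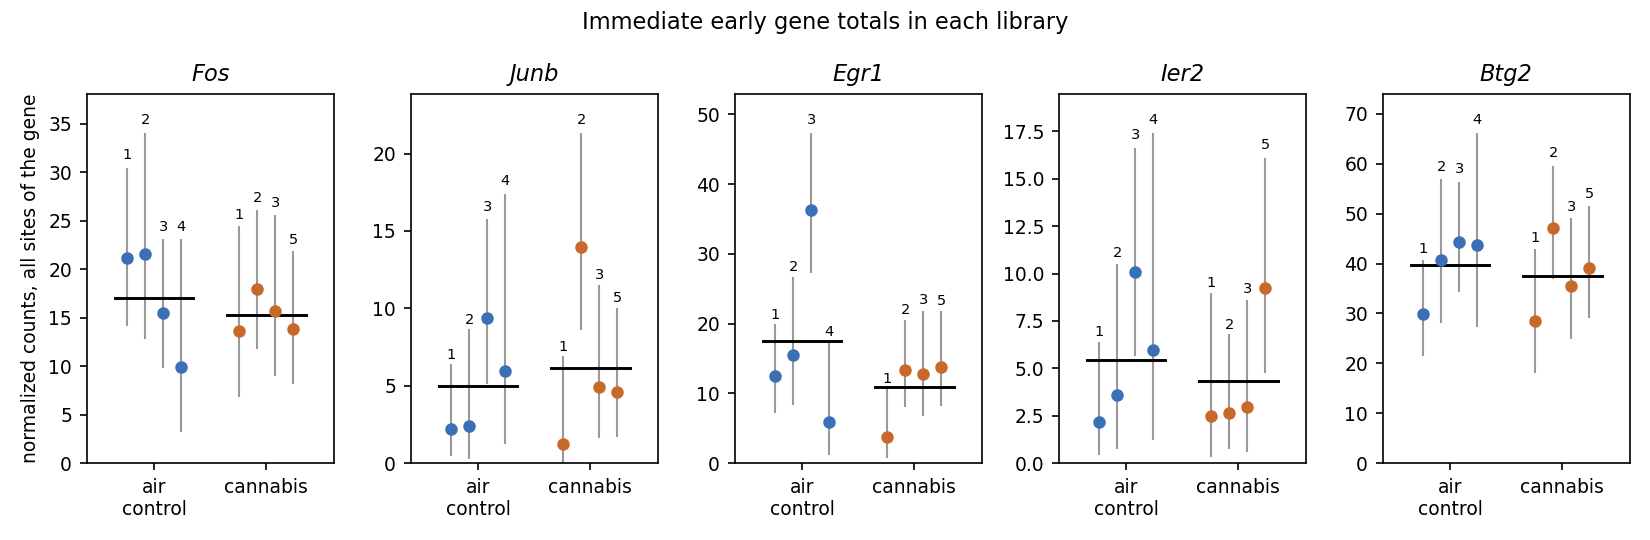
Normalized counts of each gene summed over its sites (y axis, starting at 0) in the 4 air control and 4 cannabis libraries. Points are libraries labelled with their replicate number, grey bars are exact Poisson 95% intervals for counting error only, and black lines are group means. The groups overlap for all 5 genes, and the Egr1 point of air control replicate 3, at 36.3, is the only one above 20 in its panel.

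Fos, the DNA-binding AP-1 partner, had 2 sites and 147 reads over all libraries. Control rats had 21.2, 21.5, 15.4 and 9.93 normalized counts in replicates 1 to 4, and exposed rats had 13.7, 17.9, 15.7 and 13.8 in replicates 1, 2, 3 and 5. The exposed values lay inside the range of the controls, and the lowest library of each group was also its shallowest. The controls averaged 17.0 ± 5.50 and the exposed rats 15.3 ± 2.001 normalized counts (SD, n = 4 each). The fitted log2 fold change was -0.10, with a standard error of 0.35 and a 95% interval from -0.86 to 0.66. On this scale the interval spans changes from 0.552-fold to 1.58-fold, so a doubling of Fos lay outside it. An exact permutation test of the means gave P = 0.657. Without the shallowest pair the log2 fold change was -0.27.

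Junb, also an AP-1 subunit, had 2 sites and 55 reads. It had 2.19, 2.39, 9.40 and 5.96 normalized counts in the controls and 1.24, 13.9, 4.92 and 4.61 in the exposed rats. Values spread widely within both groups, with the highest in cannabis replicate 2 and the lowest in cannabis replicate 1, which rested on 21 reads and 1 read. The means were 4.99 ± 3.41 and 6.18 ± 5.44 (SD, n = 4 each). The log2 fold change was 0.13 (standard error 0.63, 95% interval from -1.22 to 1.47, limma, P = 0.843), and the exact permutation test gave P = 0.743. This direction turned to -0.33 without cannabis replicate 2, and it was 0.71 without the shallowest pair. Site 1 alone had a log2 fold change of -0.32 (95% interval from -1.57 to 0.93, limma). The total also holds site 2, which reached the minimum of 16 reads only through the exposed rats. The direction of the total is thus not independent of the listing. At this depth a change of up to 2.77-fold in the normalized count + 1 of Junb lay inside the interval. This is a larger fold in the counts themselves.

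Egr1, which in neurons responds to the ERK pathway, had the largest difference in size among the 5 totals. It had 12.4, 15.6, 36.3 and 5.96 normalized counts in the controls and 3.73, 13.3, 12.8 and 13.8 in the exposed rats. A single animal, air control replicate 3, had more than 2 times the level of any other library, and the lowest library of each group was again the shallowest one. From its 54 reads the counting interval of air control replicate 3 was 27.2 to 47.3 normalized counts, above the upper bounds of all other libraries, the highest of which was 26.6. The remaining exposed rats lay within 12.8 to 13.8. The means were 17.6 ± 13.1 (SD, n = 4) in controls and 10.9 ± 4.81 (SD, n = 4) in exposed rats. The log2 fold change was -0.52 (standard error 0.54, 95% interval from -1.68 to 0.65, limma, P = 0.357), and the exact permutation test gave P = 0.400. It was -0.09 without air control replicate 3, -0.12 without cannabis replicate 1, -0.90 without air control replicate 4 and -0.50 without the shallowest pair. Site 1 alone had a log2 fold change of -0.34 (95% interval from -1.48 to 0.81, limma). The total also holds site 2, which reached the minimum of 16 reads only through the controls. The size of the difference in the total is thus not independent of the listing.

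Ier2 had 1 site and 45 reads. Controls had 2.19, 3.59, 10.1 and 5.96 normalized counts, and exposed rats had 2.48, 2.66, 2.95 and 9.22. One rat in each group, air control replicate 3 with 15 reads and cannabis replicate 5 with 12 reads, held most of the raw reads of its group (24 and 21 in all), and no other library had more than 4 reads. The log2 fold change was -0.28 (standard error 0.55, 95% interval from -1.48 to 0.91, limma, P = 0.617) from means of 5.45 ± 3.45 and 4.33 ± 3.27 (SD, n = 4 each), with P = 0.543 in the exact permutation test. It was 0.03 without air control replicate 3 and -0.65 without cannabis replicate 5, and it was -0.05 without the shallowest pair.

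Btg2 was the best measured, with 344 reads on 2 sites. The controls had 29.97, 40.7, 44.3 and 43.7 normalized counts and the exposed rats 28.6, 47.2, 35.4 and 39.2. The groups covered nearly the same range. The means were 39.7 ± 6.65 and 37.6 ± 7.75 (SD, n = 4 each), and the log2 fold change was -0.08 (standard error 0.27, 95% interval from -0.67 to 0.51, limma, P = 0.770; P = 0.714 in the exact permutation test). The SD expected from counting alone, 6.84 normalized counts in controls and 5.74 in exposed rats, was close to the SD observed for this gene. For Egr1 the observed SD of the controls, 13.1, was well above its counting SD of 3.997. Without the shallowest pair the Btg2 log2 fold change turned to 0.09.

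**Figure D2:**
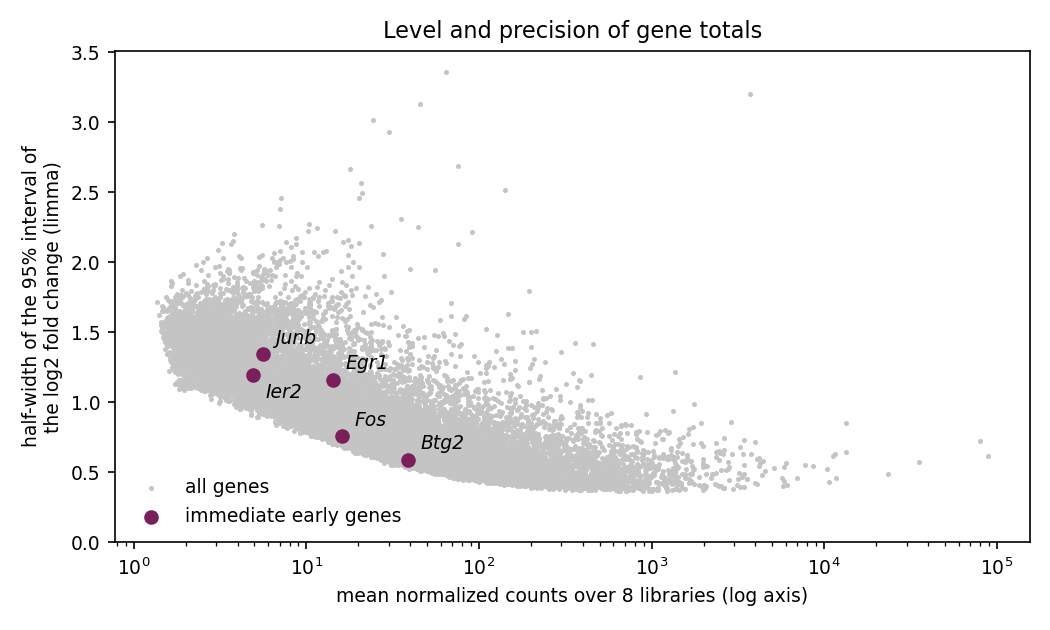
Distance from the log2 fold change to either end of its limma 95% interval (y axis) against the mean normalized counts over 8 libraries (x axis, log scale) for 18003 gene symbols in grey and the 5 immediate early genes in purple. Precision improves to the right, and Junb, Ier2 and Egr1 lie in the part of the plot where this distance is above 1.

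Intervals were narrower for genes with more counts, though not in step with them, since Egr1 had a wider interval than Fos at a similar mean. Across all gene symbols the median distance from the estimate to either end of the 95% interval was 1.32 on the log2 scale for means under 10 normalized counts, 0.88 from 10 to 30, and 0.66 from 30 to 100. Junb and Ier2 were in the lowest class. Only changes of about 2.49-fold or more in normalized count + 1 would there typically lie outside an interval centred on no change. At such low levels this is a larger fold in the counts themselves. Added over the 5 genes, the libraries held 68.0, 83.8, 115 and 71.5 normalized counts in the controls and 49.7, 94.99, 71.8 and 80.6 in the exposed rats. The highest sum was in air control replicate 3 and the lowest in cannabis replicate 1, with the other libraries of the groups intermingled.

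The choice of 3′ end was compared site by site. Sites were numbered within a gene by their counts, and their positions were not used here. At the level of single sites, limma gave 0 of 9 sites with an adjusted P under 0.05 and 0 of 9 with an unadjusted P under 0.05, against 0.00102% and 3.03% of all 98356 sites. In edgeR 1 of the 9, Egr1 site 2, had an unadjusted P under 0.05, against 2.91% of all sites, and in DESeq2 0 of 9 did, against 1.86%. Egr1 site 2 and Junb site 2 had the lowest number of reads that any listed site has. Each reached it only through the reads of the group where it was higher. The edgeR P of Egr1 site 2 is thus not independent of the listing, and no conclusion is drawn from it. No site separated the groups, against 2% of all sites.

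**Figure D3:**
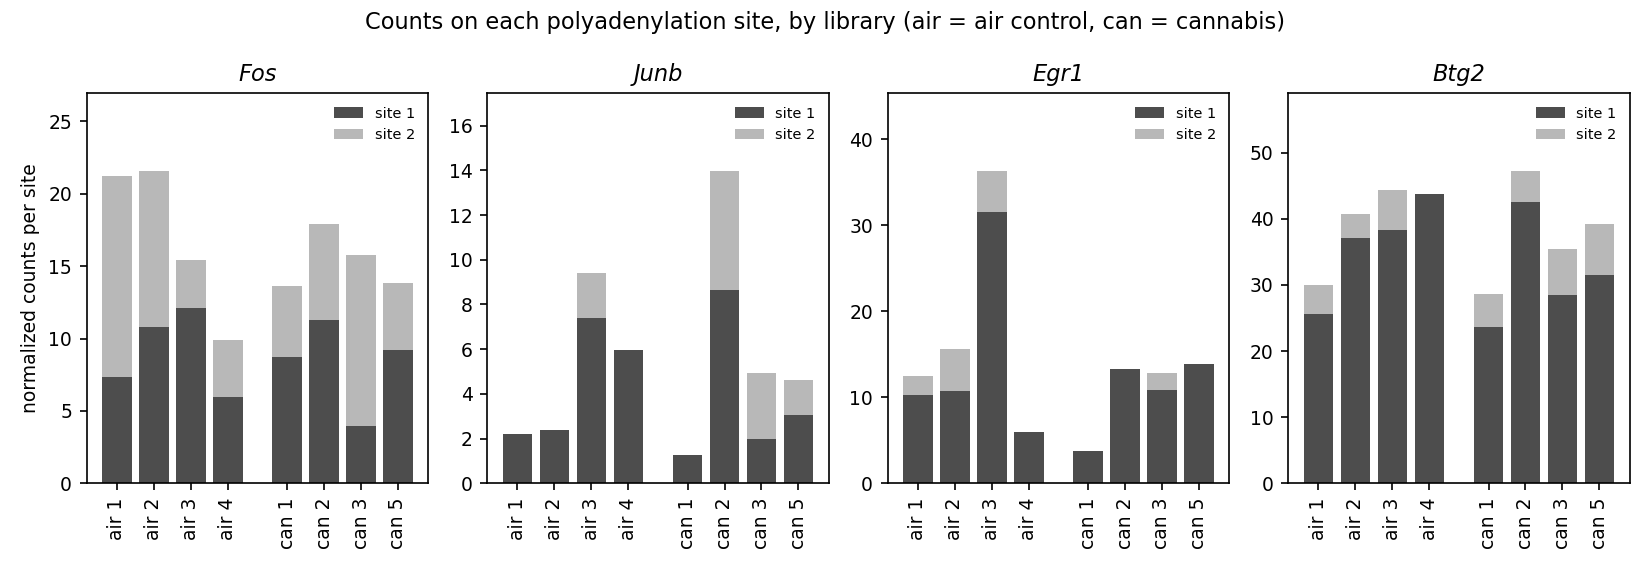
Normalized counts per polyadenylation site (y axis, starting at 0) in each library for the 4 genes with 2 sites, with the leading site in dark grey and the other in light grey. Fos is split nearly evenly between its sites, while Egr1 and Btg2 lie mostly on site 1.

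Fos reads were divided almost evenly, with 53.6% of its normalized counts on site 1 and 46.4% on site 2. The share of site 1 was 34.5%, 50%, 78.3% and 60.0% in the controls and 63.6%, 63.0%, 25.0% and 66.7% in the exposed rats. Single rats thus favoured either end in both groups. The mean shares were 55.7% ± 18.3 and 54.6% ± 19.8 (SD, n = 4 each), a difference of -1.12 percentage points (P = 0.971, exact permutation test). This difference was 6.41 points without air control replicate 3 and 8.74 without cannabis replicate 3.

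In Junb, site 1 took 73.5% of the counts. Site 2 had 16 reads in all, with 3 of them in control libraries, all in replicate 3, and 13 in exposed libraries, in replicates 2, 3 and 5. The share of site 1 was 94.6% ± 10.7 in controls and 67.1% ± 24.8 in exposed rats (SD, n = 4 each). Site 2 reached the listing minimum only through its reads in the exposed rats, so neither its difference nor that of the share is independent of the listing, and no test of them is given.

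In Egr1, site 1 took 88.0% of the counts. Site 2 also had 16 reads, of which 14 were in controls, with 3, 4, 7 and 0 reads in replicates 1 to 4, and 2 in exposed rats, both in replicate 3. Its means were 2.92 ± 2.29 and 0.492 ± 0.984 normalized counts (SD, n = 4 each). The share of site 1 was 84.7% ± 12.7 in controls and 96.2% ± 7.69 in exposed rats, a difference of 11.5 points that was 6.36 without air control replicate 2. Here the listing minimum was reached only through the reads in controls, and the same limit applies.

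Btg2 had 87.6% of its counts on site 1, with a share of 90.7% ± 6.68 in controls and 83.4% ± 4.59 in exposed rats (SD, n = 4 each). Site 2 had 4.39, 3.59, 6.04 and 0 normalized counts in controls and 4.97, 4.65, 6.89 and 7.68 in exposed rats. The difference in the share of site 1, -7.30 points, gave P = 0.114 in the exact permutation test, and it was -4.21 without air control replicate 4 and -3.94 without the shallowest pair. The site 2 log2 fold change was 0.93 (95% interval from -0.35 to 2.21, limma, adjusted P = 1.00), 0.31 without air control replicate 4 and 0.38 without the shallowest pair. The only library without a read on it was the shallowest.

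Promoter sequence was examined for features that these genes share apart from their name as immediate early genes. A pair of elements is well known at such promoters: the cAMP response element, bound by CREB, and the CArG box of the serum response element, bound by SRF. RefSeq promoter windows of the rat build GRCr8, running from 250 bases before to 50 bases after the gene start, matched 8 of the 10 genes by symbol, all but Fos and Arc. Both strands were searched for the full element TGACGTCA, for its core TGACG, which also lies within the full element, and for the CArG box. The full element was found in 3 of the 8 (Ier2, Btg2 and Dusp1), against 1.83% of the 33469 windows in the table. The core was found in 6 of the 8 (these 3, Junb, Egr1 and Nr4a1), against 21.2%. The CArG box was found in 1 of the 8, Egr1, where it occurred at 2 places, against 1.64%. A match is a description of letters in this window. The windows of the 4 measured genes are given here around their matches, 5′ to 3′ on the strand of the gene, with matching bases in capitals. Their coordinates are of GRCr8, not of the Rnor_6.0 build used for the reads.
Egr1 (chr18:26736930-26737029, + strand): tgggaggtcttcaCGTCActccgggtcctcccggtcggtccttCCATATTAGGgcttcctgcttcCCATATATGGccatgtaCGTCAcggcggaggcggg
Ier2 (chr19:40399261-40399360, + strand): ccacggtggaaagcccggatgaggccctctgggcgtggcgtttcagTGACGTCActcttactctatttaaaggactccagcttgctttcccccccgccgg
Btg2 (chr13:48087838-48087937, - strand): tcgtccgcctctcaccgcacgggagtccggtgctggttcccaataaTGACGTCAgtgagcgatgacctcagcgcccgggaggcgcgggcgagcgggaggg
Junb (chr19:40080923-40081022, + strand): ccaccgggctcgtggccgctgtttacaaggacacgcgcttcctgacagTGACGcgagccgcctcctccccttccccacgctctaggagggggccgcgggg

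The full element began 66 bases before the gene start in Ier2 and 201 bases before it in Btg2. In Egr1 the CArG boxes began 105 and 83 bases before the start, between cores at 135 and 66 bases that both read on the opposite strand, and in Junb the core began 155 bases before it. Ier2 and Btg2, which both hold the full element, lay at opposite ends of the levels above.

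Other genes of the same response were read from 3 lists. Of 20 further immediate early transcription factors, 14 had a row, with means from 2.04 to 378 normalized counts. In limma 0 of the 14 had an adjusted P under 0.05, against 0.00555% of all symbols, and 1 had an unadjusted P under 0.05, against 2.41%. The median log2 fold change was 0.13, against 0.05 for all symbols. The most abundant was Jund, the Jun protein that is present at steady levels in many cells. It had 358, 390, 312 and 455 normalized counts in controls and 456, 426, 307 and 320 in exposed rats, with a log2 fold change of -0.01 and a 95% interval from -0.46 to 0.44 (limma, adjusted P = 0.999). Next was Klf6, a Krüppel-like zinc finger factor, with 97.5 ± 31.5 and 86.1 ± 15.1 (SD, n = 4 each) and a log2 fold change of -0.13 (limma, adjusted P = 0.999). Klf4, also of the Krüppel-like family, had 82.6, 46.7, 64.5 and 55.6 in controls and 48.4, 36.5, 45.3 and 24.6 in exposed rats. Only its lowest control lay below the highest exposed rat, and the log2 fold change was -0.69 (95% interval from -1.32 to -0.06, limma, unadjusted P = 0.0347, adjusted P = 0.999). Left out singly, air control replicates 1 and 3 and cannabis replicates 2 and 5 each took this P above 0.05, to 0.114, 0.0717, 0.0588 and 0.115 in limma. With replicate number as a block it was 0.137 in limma. The unadjusted P of Klf4 was 0.0224 in edgeR and 0.0196 in DESeq2. In limma without the shallowest pair it was 0.0193, with a log2 fold change of -0.85.

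Of 30 activity-induced effector genes, which act downstream at synapses, in secretion or as feedback inhibitors, 23 had a row. None had an unadjusted P under 0.05 in limma, against 2.41% of all symbols, and the median log2 fold change was 0.16, against 0.05. Vgf, which encodes a secreted neuropeptide precursor, was the most abundant, with 300.5, 413, 417 and 304 normalized counts in controls and 406, 510, 929 and 398 in exposed rats. Cannabis replicate 3 stood above all the others, and the groups overlapped. Vgf had a log2 fold change of 0.57 (95% interval from -0.01 to 1.15, limma, adjusted P = 0.999), and 0.30 without cannabis replicate 3. Its unadjusted limma P of 0.0532 became 0.0488, 0.0286 and 0.0301 without air control replicate 3, cannabis replicate 1 and cannabis replicate 5, where the log2 fold changes were 0.65, 0.69 and 0.70, and edgeR gave an unadjusted P of 0.0492. Spry2, a feedback inhibitor of receptor tyrosine kinase signalling, had 279, 229, 190 and 872 in controls and 929, 185, 243 and 160 in exposed rats. Its high values were those of the shallowest pair, and the log2 fold change was -0.16 with all libraries and -0.25 without that pair.

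Upstream, 20 of 21 kinases, coactivators and promoter-binding factors had a row, including Creb1 and Srf. In limma 0 of 20 had an adjusted P under 0.05, against 0.00555% of all symbols, and 1 had an unadjusted P under 0.05, against 2.41%. The median log2 fold change was 0.12, against 0.05 for all symbols. Creb1 had a mean of 88.3 normalized counts in controls and 98.3 in exposed rats, and Srf had 66.5 and 63.7 (limma, adjusted P = 0.999 for both). The most abundant were the kinases that phosphorylate ERK, Map2k1 and Map2k2, with log2 fold changes of 0.11 and 0.13 (limma, adjusted P = 0.999 for both). Rps6ka2, a ribosomal S6 kinase activated by ERK, had 45.3, 27.5, 36.9 and 41.7 in controls and 69.5, 49.8, 52.2 and 59.9 in exposed rats. All exposed rats lay above all controls, and 1.98% of all gene symbols had groups that did not overlap in either direction. The log2 fold change was 0.61 (95% interval from 0.05 to 1.17, limma, unadjusted P = 0.0360, adjusted P = 0.999). On the recovered reads edgeR gave 0.56 with an unadjusted P of 0.0585. Left out singly, air control replicates 2 and 3 and cannabis replicates 1 and 5 each took the limma P above 0.05, to 0.113, 0.0656, 0.0847 and 0.0694, and it was 0.0611 without the shallowest pair.

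**Figure D4:**
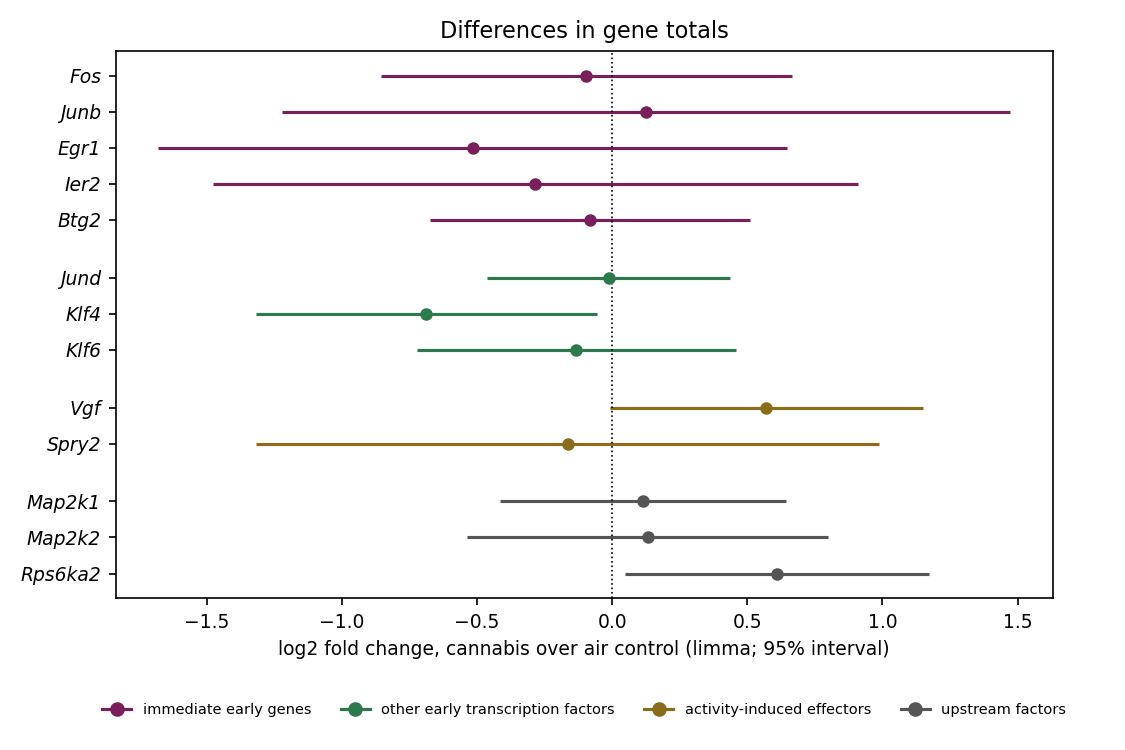
Log2 fold change of gene totals, cannabis over air control (x axis), with limma 95% intervals, for the 5 immediate early genes and the 8 genes named from the 3 lists (y axis, coloured by list). All 5 immediate early genes have intervals that cover 0, while those of Klf4 and Rps6ka2 do not before adjustment.

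The libraries were also searched for genes with a like profile. The log2 totals of Fos, Egr1 and Btg2, the 3 genes with a mean of at least 10, were centred and averaged, which gave the highest value in air control replicate 3 (0.57) and the lowest values in cannabis replicate 1 (-0.68) and air control replicate 4 (-0.44). Among 3654 other genes with a mean of at least 100 normalized counts, the 5 most like this profile included Tpd52 (Pearson r 0.94 over 8 libraries), Igf2 (0.92), Slc35b4 (0.92) and Ccdc149 (0.92). The points share the libraries and their depth: the profile itself had r 0.65 with the log2 number of reads, and these 4 genes had r from 0.54 to 0.78 with it. The figures describe these libraries, and the genes were picked from many.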

How the data were processed

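The 8 WTTS-Seq libraries were analysed. The authors quality-filtered Ion Torrent reads (FASTX Toolkit), removed the Ts that each read opens with, aligned to Rnor_6.0 with TMAP, merged nearby read ends into sites, named genes with Cuffcompare and divided reads by DESeq2 size factors. Each library was taken as 1 rat. The deposited signal is this normalized count per site; 100% of values were whole multiples of 1 read to within 0.001 reads, and reads were recovered from that step. Sites without a symbol held from 12.1% to 16.1% of reads and stayed out of gene totals. Gene totals and sites were fitted with limma 3.58.1 (R 4.3.3; pseudocount 1, mean-variance trend, no filter or covariate), with Benjamini-Hochberg adjustment over all symbols or sites. Exact permutation tests were two-sided. The fits were tested on simulated data with changes only in genes with a mean of at least 30 normalized counts. Of the immediate early genes only Btg2 reached this level, so the simulation does not cover the others. Counting intervals ignore PCR duplicates. Alternatives were pseudocounts 0.5 and 5, a mean of at least 10, equal totals, edgeR 4.0.16, DESeq2 1.42.0, a replicate block, each library left out, and the shallowest pair left out (chosen after seeing the data). From each list, genes with unadjusted P under 0.05 and the 2 most abundant were named; Creb1 and Srf were added after their values were seen. Members and lists were chosen with earlier results of these data known. Python 3.11.15, scipy 1.17.1, pandas 2.3.3 and matplotlib 3.10.9 were used. A gene of the profile comparison is not reported here.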

Additional observations from a re-analysis of the deposited data

Results flagged for a closer look

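In 76 groups of 4 libraries, 9 values lay far from the other 3 by Dixon's gap criterion. Its rate of about 1 in 20 groups holds for independent, normally distributed values, which these are not. The gap is at its largest wherever the other 3 libraries have no read or a share of 100%. The flagged shares of Junb and Egr1 also rest on the same reads as their flagged sites. No conclusion is drawn from the number of flags. For gene totals these were Egr1 in cannabis replicate 1 (3.73 normalized counts, from 3 reads, where the others had 12.8 to 13.8), Ier2 in cannabis replicate 5 (9.22 against 2.48 to 2.95), and Spry2 in air control replicate 4 (872 against 190 to 279) and in cannabis replicate 1 (929 against 160 to 243). Junb site 2 had 2.01 normalized counts in air control replicate 3 and no read in the other controls, and Egr1 site 2 had 1.97 in cannabis replicate 3 and no read in the other exposed rats. The same libraries had leading-site shares of 78.6% for Junb and 84.6% for Egr1, with 100% in the other 3. The share of Fos site 1 was 25.0% in cannabis replicate 3 against 63.0% to 66.7%.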

How the results depend on the processing

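No immediate early gene passed an adjusted P of 0.05 in any alternative, and none had an unadjusted P under 0.05. The lowest, 0.0515, was that of Egr1 with the replicate block (log2 fold change -1.05). Replicate numbers 1 to 3 are shared by the groups, and the correlation of deviations within these 3 pairs ran from -0.235 to 0.0890. So few correlations cannot decide whether the numbers pair the rats, and the labels do not say. Air control replicate 4 and cannabis replicate 5 have no partner, so the block compares the groups only within the 3 shared numbers. The block gave 243 genes with unadjusted P under 0.05 against 433, and 2 genes and 4 sites with adjusted P under 0.05 against 1 and 1. It turned Jund to 0.15, Spry2 to 0.59 and Map2k1 to -7.8e-05, and the unadjusted P of Vgf was 0.0418 with it.

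Of 78 alternative values for the 5 gene totals, 70 kept their direction; the mean of at least 10 left no value for Junb and Ier2. The totals of Junb and Egr1 include a site listed only through 1 group, so their directions are not independent of the listing. With 1 library left out, the log2 fold change ran from -0.32 to 0.0308 for Fos, from -0.33 to 0.58 for Junb, from -0.65 to 0.0275 for Ier2 and from -0.21 to 0.0386 for Btg2; Egr1 stayed between -0.90 and -0.09. The pair of shallowest libraries left out gave 0.0894 for Btg2. Leaving out 1 library moved the Fos site 1 share difference between -8.19 and 8.74 points, and the named list genes between -0.11 and 0.0795 for Jund, -0.35 and 0.00829 for Klf6, -0.73 and 0.32 for Spry2, -0.0642 and 0.25 for Map2k1, and -0.0489 and 0.35 for Map2k2. The cause was not tested.

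Genes with unadjusted P under 0.05 numbered 250 with a mean of at least 10 (12114 genes tested) and from 294 to 753 with 1 library left out (753 without cannabis replicate 1, 650 without air control replicate 3). Of these 433 genes 54.5% were higher in exposed rats, but 37.2% of those in edgeR and 32.4% of those in DESeq2. Genes with adjusted P under 0.05 numbered 0 with the mean filter, 2 in edgeR, 4 in DESeq2, from 0 to 2 with 1 library left out and 0 without the shallowest pair; sites numbered 0, 0, 2, from 0 to 4, and 0. Of the 9 sites, 1 had an unadjusted P under 0.05 in edgeR and without the shallowest pair, and from 0 to 1 with 1 library left out. In each case it was Egr1 site 2 or Junb site 2. Each of these reached the listing minimum only through 1 group, so no conclusion is drawn from these counts. The site share without sites of low mean could be recomputed for Fos only. Depth limits what single sites can show, since 5 of the 9 sites had a mean under 5 normalized counts.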
